A study of Mus musculus with 27 samples.

Results

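Notch signalling passes between touching cells. A ligand on one cell (Jagged or Delta-like) engages a Notch receptor on the next, an ADAM protease and then gamma-secretase cut the receptor, and the freed intracellular part joins the DNA-binding protein Rbpj and a Mastermind coactivator to switch on genes of the Hes and Hey families of repressors. In the melanocyte lineage the pathway is known for keeping the melanoblasts and melanocyte stem cells that supply pigment to hair. The 10 genes described here were taken by symbol: the receptors Notch1, Notch2 and Notch3, the ligands Jag1, Jag2 and Dll1, the nuclear effector Rbpj and the targets Hes1, Hey1 and Hey2. They are 10 of 23420 genes in each of the 3 deposited tables.

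The RNA came from B16 mouse melanoma cells and from clones 2 and 9, which are B16 derivatives in which the endogenous Tbx2 gene was given an HA tag. Each line was transfected with an siRNA against the T-box transcription factor Tbx2 (siTbx2), with a control siRNA (siCtrl), or left untransfected. Transfected cells were collected at 48 h. There were 3 samples in each of the 9 groups, 27 in all, and 18 of them received an siRNA. Each clone is 1 line, and both carry the tag that parental cells lack. Per the study, clone 2 appeared to keep some untagged Tbx2 protein as well.

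The deposited tables hold 1 level per gene, the authors' mean of the normalized count over libraries. That mean was the same in the 3 tables for every gene, so it is not the level of 1 line or of 1 treatment. No value per library is in the tables used here. The levels below therefore have no replicate error. The means of all genes summed to 3880928 normalized counts, but the depth of each library is unknown. No difference between siTbx2 and siCtrl cells was computed for any Notch gene. The other columns of the tables are the authors' own comparison of siTbx2 with siCtrl, and they were not used. What follows describes which Notch genes were detected over the libraries, at what mean level, and which features of their RNA bear on how that level is measured. Differences between the mean levels of 2 genes are given as ratios and could not be tested.

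Of the 20896 genes with a mean above 0, the median was 7.48 normalized counts, and 10121 genes, 43.2% of all genes in the tables, had a mean of 10 or more. The 7 melanocytic markers all passed 10, from 293.6 for Tyr (tyrosinase) to 48044.6 for Dct (dopachrome tautomerase). Of 7 markers of leukocytes, endothelium, epithelium and fibroblasts, 1 passed 10, the fibroblast collagen gene Col1a1 at 24.9, and 5 were below 1, with the leukocyte gene Ptprc lowest at 0.029. Tbx2 itself had a mean of 189.7, above 81.1% of genes with a mean above 0.

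Within each line the groups differ by siRNA treatment. The guide strand of a Tbx2 siRNA is therefore shown beside the RNA that it was designed to pair with. The study lists 3 mouse siRNAs against Tbx2, numbers 05, 06 and 14. Number 06 is shown because the title of a sheet of the supplement, that of genes changed in parental B16 cells, carries it; for the clones no number is given in those sources. Capitals mark guide positions 2 to 8, the seed, counted from the 5′ end. In the Tbx2 site, which lies in the 3′ UTR on the plus strand at chr11:85841232-85841260 of GRCm38 (mm10), they mark the bases that pair with the seed.
siTbx2 number 06 guide: aGAAAUUUgcaucaaaucc
Tbx2 site: ggatttgatgcAAATTTCtgttcgagagt

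None of the 10 Notch genes carried AAATTTC, the match to guide positions 2 to 8, in its longest annotated 3′ UTR or anywhere else in its longest transcript. Among 18802 genes with a 3′ UTR of at least 30 bases, 14.3% carried it in that UTR. No share of all genes was taken for whole transcripts. The shorter match AATTTC, to guide positions 2 to 7, was in the 3′ UTR of Notch1, Notch2 and Hey1 once each and in that of Rbpj at 2 places, so in 4 of the 10 genes, beside 32.6% of the 18802. These 5 windows, each 29 bases of mm10 read along the transcript with the match in capitals, are the closest counterparts of the Tbx2 site that this search found in the Notch genes.
Notch1, minus strand, chr2:26459382-26459410: taagaggacaagAATTTCcattttttttt
Notch2, plus strand, chr3:98148169-98148197: aacctgcaccttAATTTCtctcccctgca
Rbpj, plus strand, chr5:53656136-53656164: aatttgtaaatcAATTTCaatatatgatg
Rbpj, plus strand, chr5:53657037-53657065: tgcctttctattAATTTCcccctgtgttg
Hey1, minus strand, chr3:8664076-8664104: cttttgaggattAATTTCgcacgccacta
A match is a description of the letters and was not tested as a site. The median 3′ UTR of the 18802 genes was 1019 bases, and a longer one has more places for a match. Those of Hey1 (1137), Notch1 (1628), Notch2 (2917) and Rbpj (3742) were longer than this median. Those of Jag1, Jag2 and Hey2 were also longer and had no match. The shares were not adjusted for length.

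All 10 Notch genes had a mean above 0, as had 20896 of the 23420 genes in all. A mean of 10 or more was found for 6 of the 10, beside the 43.2% of all genes. The 6 were Notch2, Rbpj, Hes1, Jag1, Notch1 and Notch3, from high to low. Hey2, Jag2, Dll1 and Hey1 had means under 2, and the lowest, Dll1 and Hey1, were under 1. The median over the 10 genes was 23.5 normalized counts. The share was not tested against the background.

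**Figure D1:**
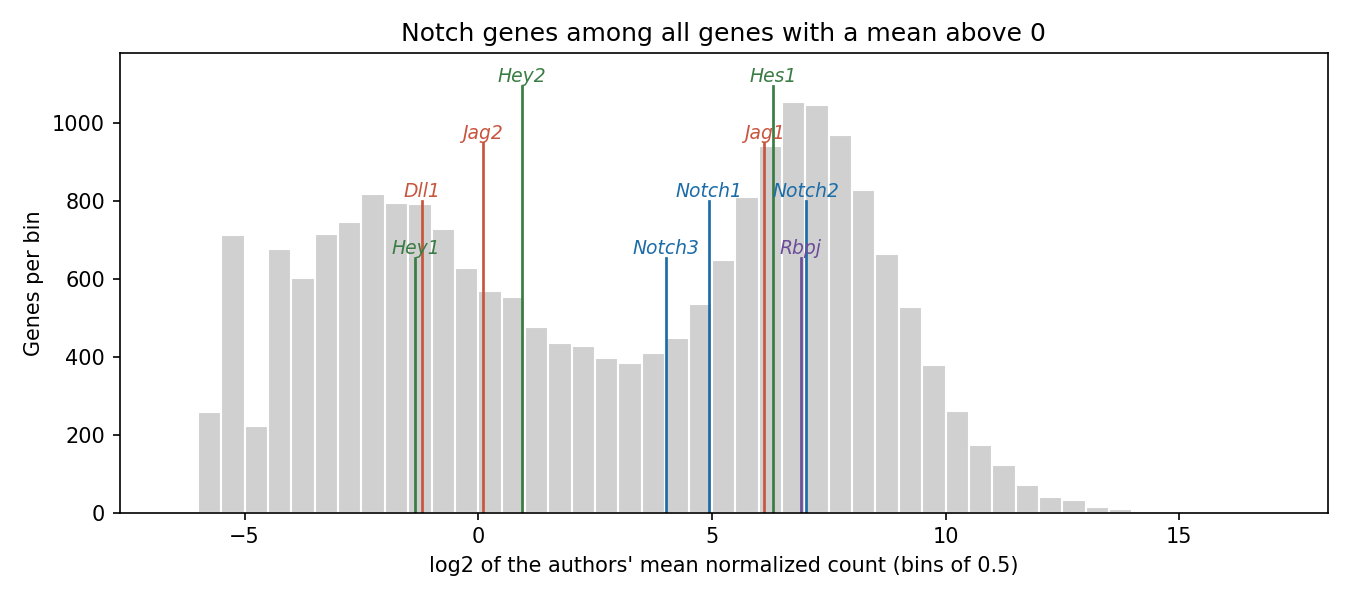
Number of genes per bin of the authors' mean normalized count (log2 axis, bins of 0.5), over the 20896 genes with a mean above 0, with a line at the value of each of the 10 Notch genes, coloured as receptor, ligand, nuclear effector or target. Notch1, Notch2, Notch3, Jag1, Rbpj and Hes1 lie in the right-hand hump of the distribution or on its left flank, and Hey1, Dll1, Jag2 and Hey2 lie in the left-hand hump or on its right flank.

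The 3 receptors among the 10 Notch genes all had a mean of 10 or more. The library kit (QuantSeq) primes at poly(A) tails, so that a transcript gives reads near its end whatever its length, and the mean is set side by side between genes without division by length. Notch2 had the highest level of the 10 Notch genes, 129.7 normalized counts, above 75.6% of genes with a mean above 0. Notch1, the receptor best known from T-cell leukaemia, had 30.9, and Notch3, known from vascular smooth muscle, had 16.1. Notch2 thus stood 4.21 times above Notch1 and 8.06 times above Notch3. The remaining mouse receptor, Notch4, known from endothelium, had a mean of 1.98.

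Among the ligands, Jag1 alone had a mean of 10 or more. Its level was 69.6 normalized counts, above 67.0% of genes with a mean above 0. Jag2 had 1.07 and Dll1 had 0.434, so that Jag1 was 65.1 times above Jag2 and 160.2 times above Dll1. The means of Jag2 and Dll1 were under 2 and have no replicate error, so these ratios are rough. Of the 4 other ligand genes listed, none reached 10. They ran from Dll4, a ligand known from sprouting vessels, at 0.710 to Dlk2, a non-canonical ligand, at 1.74. Jag1 had the highest mean of the 7 ligand genes.

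Rbpj, the DNA-binding protein through which cut receptors act, had 119.2 normalized counts, above 74.4% of genes with a mean above 0. Its level was close to that of Notch2, with a Notch2 to Rbpj ratio of 1.09. With no replicate error, the order of these 2 genes could not be tested.

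Of the targets, Hes1 had 79.0 normalized counts and both Hey genes had few. Hes1 encodes a basic helix-loop-helix repressor and is a classical Notch target that other signals also drive. Hey2 had 1.91 and Hey1 had 0.394, the lowest of the 10 Notch genes. Hes1 was 41.3 times above Hey2 and 200.5 times above Hey1, and its mean was above 68.5% of genes with a mean above 0. Both Hey means were under 2 and have no replicate error, so these ratios are rough. Of 4 other targets listed, Hes6 alone passed 10, at 169.2, and Hes5 was lowest of the 4 at 0.0272. Hes6, which is known to oppose Hes1 rather than to be driven by Notch in several tissues, was the highest of the 7 target genes by the mean.

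**Figure D2:**
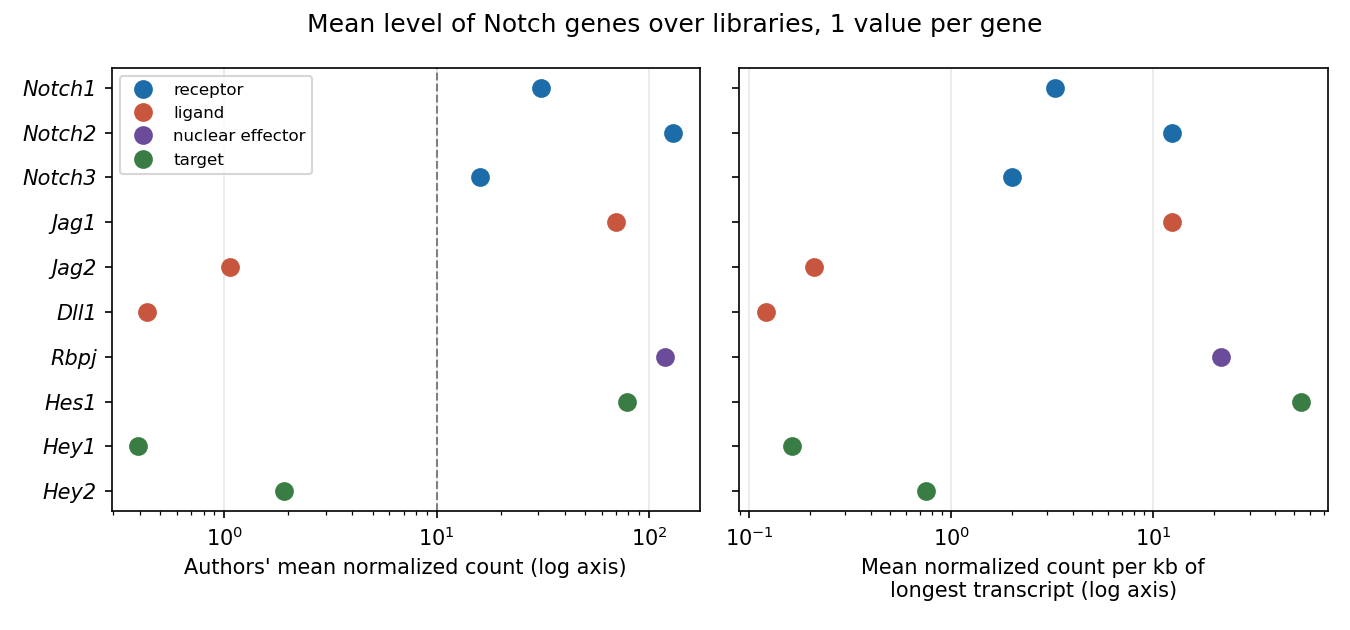
Level of each of the 10 Notch genes as the authors' mean normalized count (left, log axis, dashed line at 10) and divided by the length of the longest annotated transcript in kb (right, log axis). Points are 1 value per gene with no replicate error, and the gap between the 6 genes above 10 and the 4 genes under 2 is seen on the left. On the right Hes1, with the shortest transcript, is highest at 53.8 normalized counts per kb, a place that the division by length gives it.

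By the mean, the 10 Notch genes ran in the order Notch2, Rbpj, Hes1, Jag1, Notch1, Notch3, Hey2, Jag2, Dll1 and Hey1. As an alternative, the mean was divided by the length of the longest annotated transcript, which runs from 1468 bases for Hes1 to 10500 bases for Notch2. For reads of transcript ends this division lowers long transcripts and raises short ones, so it is no better measure of the level. The order was then Hes1, Rbpj, Jag1, Notch2, Notch1, Notch3, Hey2, Jag2, Hey1 and Dll1. The same 6 genes led and the same 4 genes trailed on both scales.

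Every listed gene of receptor cleavage, coactivation and corepression passed 10. Of 39 other genes of the pathway, 26 had a mean of 10 or more, beside 43.2% of all genes, with a median of 73.6. A mean of 1 or more was found for 34 of the 39, beside 56.4% of all genes, and 5 were below 1. None was at 0, and 20896 of the 23420 genes in all had a mean above 0. These shares were not tested. All 10 genes of receptor cleavage passed 10, from Aph1b at 37.1 to Psen2 at 867.4, both encoding parts of gamma-secretase. Of 5 genes of receptor glycosylation 3 passed, led by the O-glucosyltransferase Poglut1 at 493.2, with the Fringe gene Mfng lowest at 0.346. All 5 coactivator genes passed, led by the acetyltransferase gene Kat2b at 148.5 with the Mastermind gene Maml3 lowest. Both corepressor genes passed, Spen at 255.5 and Ctbp1 at 846.3. Most of these proteins also serve other pathways.

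Genes that act on the ligands or restrain the signal were uneven. Of 3 ubiquitin ligase genes of ligand endocytosis, Mib2 alone passed, at 20.6, and Mib1, the main such ligase in the mouse embryo, was lowest at 5.92. Of 5 negative regulators 4 passed, led by Fbxw7, which marks the cut receptor for degradation, at 347.8. Nrarp, a feedback inhibitor that Notch itself drives, was lowest at 1.58.

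**Figure D3:**
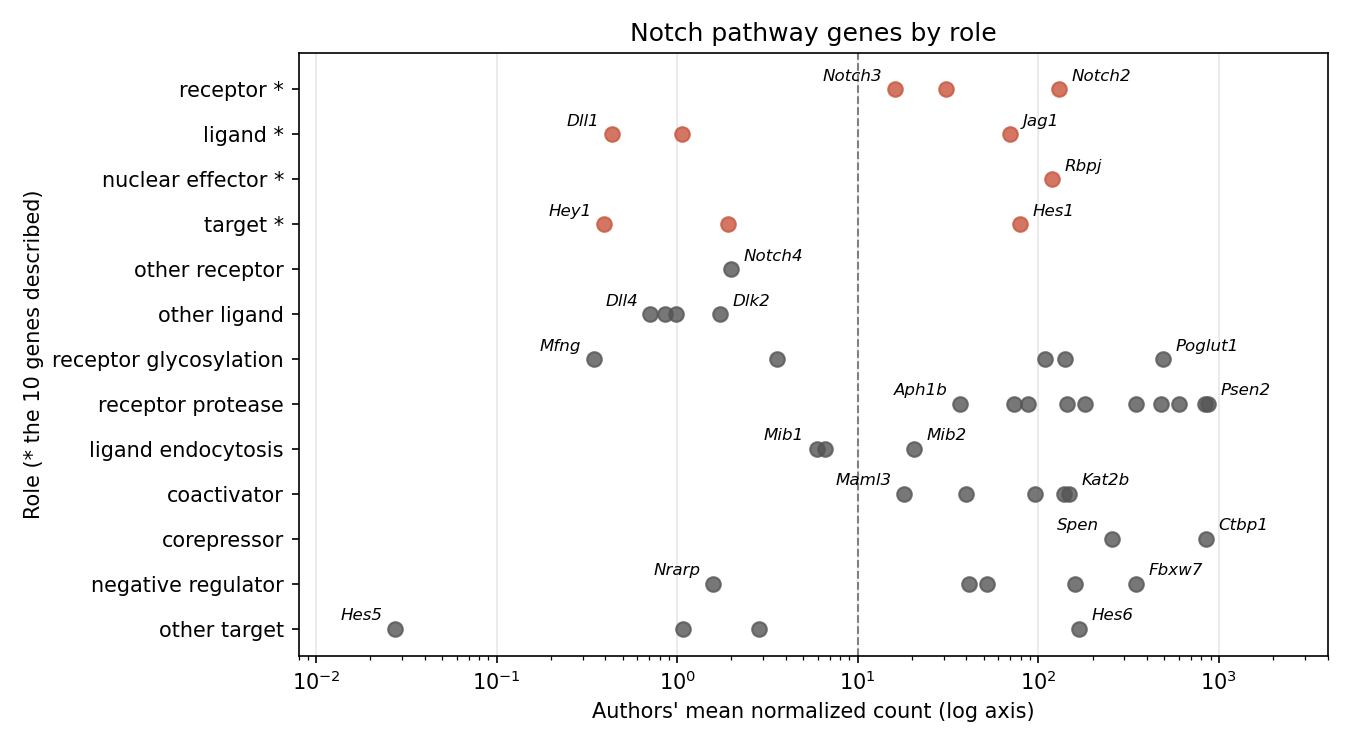
The authors' mean normalized count (log axis) of the 10 Notch genes described (red, marked by an asterisk) and of 39 other pathway genes (grey), 1 point per gene and 1 line per role, with the lowest and highest gene of each role named and a dashed line at 10. The 10 receptor protease genes, 5 coactivator genes and 2 corepressor genes lie right of the line, and the 4 other ligand genes lie left of it.

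Since the reads come from transcript ends, the annotated ends were examined. All 10 Notch genes had a polyadenylation hexamer, AATAAA or ATTAAA, in the last 50 bases of an annotated coding transcript, beside 75.5% of 18802 genes. AATAAA was found in 8 of them. The 75.5% counts either hexamer, and no share of all genes is given for AATAAA alone. Jag2 and Hey2 had ATTAAA alone, at 35 and 18 bases from the end. All 10 had one, so the hexamer could not separate the 6 genes at 10 or more from the 4 under 2. Whether these ends were used in the cells was not tested. Ends that the annotation does not hold were not examined.

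The 3′ end of Notch1 was the only one of the 10 that shared sequence with another gene. How common shared ends or overlapped last exons are among all genes was not examined, so this does not mark Notch1 as unusual. Notch1 lies on the minus strand of chromosome 2 from 26457903 to 26516663 in mm10, with 34 exons in its longest transcript and a 3′ UTR of 1628 bases. Over its last exon the annotation places 0610009E02Rik and Gm13568, both on the plus strand. Of 451 words of 50 bases in the last 500 bases of Notch1, read on either strand, 365 also lay in these genes. Gm17276, on the plus strand, overlaps the last exon of Notch3, which lies on the minus strand of chromosome 17 from 32120820 to 32166852. None of these 3 overlapping genes is named in the tables used here. No source used here says whether the authors counted reads by strand, so the levels of Notch1 and Notch3 are uncertain to that extent. No annotated gene lay over the last exon of the other 8.

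Notch2 lies on the plus strand of chromosome 3 from 98013527 to 98150361, with 34 exons and the longest transcript of the 10. Jag1 lies on the minus strand of chromosome 2 from 137081456 to 137116644, with 26 exons, and Rbpj on the plus strand of chromosome 5 from 53466152 to 53657362, with the longest 3′ UTR of the 10, 3742 bases. Hes1 lies on the plus strand of chromosome 16 from 30064384 to 30067796, with 4 exons and the shortest 3′ UTR, 368 bases. These positions are those of GENCODE vM21 on GRCm38.

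A search of promoter windows of 300 bases around RefSeq starts (GRCm38.p6), chosen after the tables had been read, covered 10 promoters of 8 Notch genes. Hes1 and Hey1 were not matched. TGGGAA, the core that Rbpj binds, read on both strands, was in 3 of the 10 promoters, beside 25.6% of 32851 promoters. The 3 were the promoter of Hey2 and a pair of overlapping Rbpj promoters. The T-box element letters AGGTGTGA and the E-box CACGTG were in none of the 10, beside 419 and 2349 of the 32851 promoters. This says only that these letters are not in these windows.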

How the data were processed

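RNA of 27 samples was sequenced from 3′ ends. Per the submitters' processing notes, the authors used FastQC (0.11.7) for read quality, STAR (2.6.1d) for alignment to mm10, featureCounts (Subread 1.6.2) for gene counts and DESeq2 (1.28.1) for the comparison. The signal used here is the authors' mean normalized count, deposited once per gene and identical in the 3 tables. No source used here says which libraries it averages. The 5 other value columns hold the authors' raw and adjusted p, test statistic, log2 fold change and standard error. They hold the study's own comparison and were not used. An edgeR test planned for counts per library was not run, since the tables used here hold none.

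Of 23512 entries, 92 spike-ins were left out, and 27 names had become dates. Transcripts came from GENCODE vM21. The longest transcript of a gene gave its length. The 3′ UTR was the longest among its protein-coding transcripts, which can be another transcript. Lengths were matched for 21751 genes (93%). Percentiles were taken among genes with a mean above 0. Computing used Python 3.11.15, numpy 2.4.6, pandas 2.3.3 and scipy 1.17.1, and the sequence searches were tested on simulated data. The genes named are the 10 Notch genes, the listed pathway genes as counts by role with the highest and lowest, markers, and Tbx2; 1 listed gene is not reported here and was left out of the counts. Genes and lists were chosen with earlier results of these data known.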

Additional observations from a re-analysis of the deposited data

How the results depend on the processing

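With a floor of 100 normalized counts in place of 10, the number of the 10 Notch genes above the floor was 2, beside 25.2% of all genes. With floors of 1 and 50 it was 8 and 4, beside 56.4% and 32.9%. The other 39 pathway genes gave 26 at a floor of 10 and 17 at a floor of 100, beside 43.2% and 25.2% of all genes. The shorter guide match, to positions 2 to 7, was in 4 of the 10 genes, against 0 for positions 2 to 8. It was in 32.6% of the 18802 genes with a 3′ UTR of at least 30 bases. The guides of siTbx2 numbers 05 and 14, chosen after seeing the data, also had 0 matches to positions 2 to 8, beside 8.23% and 9.4% of the same 18802 genes. Counting genes at 0 moved the percentile of each of the 10 genes up, by 2.6 for Notch2 to 7.8 for Hey1. Ranking among genes with a mean of 10 or more lowered all 6 genes that pass it, by construction since lower genes leave the ranking, with shifts from -48.7 for Notch3 to -25.9 for Notch2: the percentile was then 5.5 for Notch3, 14.5 for Notch1 and 49.7 for Notch2. Scaling per kb raised Hes1 by 11.5 and lowered the other 9. The hexamer count was 10, or 8 with AATAAA alone, for which no share of all genes is given. The count of 10 and the shared end of Notch1 did not depend on the window or word length tried. No paired analysis was possible because the tables used here hold no value per library; for the same reason no replicate was left out and the comparison of siTbx2 with siCtrl was not made.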
